A study of Mus musculus with 11 samples.

Results

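The genes described here are 209 mouse zinc finger genes, chosen as protein-coding genes with a symbol of Zfp followed by a digit and an H3K4me3 peak in wild-type cells within 1000 bases of an end of the gene span. They were 209 of the 397 Zfp genes that the gene annotation of build mm10 lists on the autosomes, X and Y, or 52.6%, against a background of 35.5% of all 21883 protein-coding genes. The wild-type H3K4me3 list therefore chose the members, and its values at them are given as a description with no test. The other 188 Zfp genes had no such peak, and 7550 other protein-coding genes were marked in wild-type cells by the same rule. The symbol Zfp stands for zinc finger protein, and the proteins themselves were not analysed here.

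Most proteins of this family carry arrays of C2H2 zinc fingers, each finger folding around a zinc ion and contacting a few bases of DNA. Many also carry a KRAB domain, which recruits the corepressor TRIM28 and through it H3K9 methylation, and such proteins are known in embryonic stem cells for silencing retroelements and for keeping imprints. Their genes multiplied by tandem duplication and stand in clusters of related copies. H3K4me3, trimethylation of lysine 4 of histone H3, marks the promoters of active genes, and WDR5 holds together the MLL and SET1 methyltransferase complexes that place it. P53 is the stress-responsive transcription factor encoded by Trp53.

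Chromatin was profiled by CUT&RUN, in which an antibody-bound nuclease releases the DNA next to its target for sequencing, in embryoid bodies (aggregates of differentiating stem cells) at day 2. The genotypes were Wdr5 knockout (KO), Wdr5 and p53 double knockout (DKO) and wild type (WT). All of them were grown from embryonic stem cells carrying a knock-in of GFP at Rx, by the SFEBq aggregation method in GMEM with 5% KSR, with doxycycline taken away at day 0 and 2% matrigel given from day 1. What doxycycline controlled, and whether each genotype was 1 clone, is not given in the sources used here. H3K4me3 had 1 peak list for each of KO, DKO and WT, and WDR5 and P53 had 2 lists each in DKO and in WT, which makes 11 lists in 7 groups. WDR5 and P53 lists of KO cells were not analysed here.

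The H3K4me3 libraries held 22.3 M (mega) fragments and 918 peaks in KO, 43.2 M and 6418 in DKO, and 34.2 M and 9836 in WT, so the KO library was the shallowest. The WDR5 and P53 libraries held 23.9 to 57.5 M fragments and 99 to 725 peaks. In the WDR5 lists and in the WT P53 lists, 75.3% to 80.3% of the peaks of list 2 had their summit on the same base as a peak of list 1, and the headers of list 2 name merged alignments, so the 2 lists of a group were not treated as independent replicates. In the DKO P53 lists the share was 10.6%. An H3K4me3 peak stood at Wdr5 and at Trp53 in all 3 genotypes. These peaks check no deletion, as the deleted parts are not given. Of 5 pluripotency markers 3 were marked in KO, 5 in DKO and 4 in WT, with Nanog marked in DKO only. Of 6 anterior neural markers, 0, 1 (Otx2) and 1 (Otx2) were marked in KO, DKO and WT, and Rax was among those without a peak. Of 5 fibroblast markers, 1 (Thy1) was marked, in WT.

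Peak height is given as the authors' fold enrichment, the fragment pileup at the summit over the local background of the same library. It is not scaled between libraries, so heights from different lists are set side by side and not compared. The 209 members had a median WT fold enrichment of 4.84, with quartiles of 4.17 and 5.58 and a range of 3.15 to 8.59, beside a median of 4.71 in the other marked genes. Their WT peaks were 592 bases long in the median, beside 596.5 bases in the other marked genes. Members and other genes thus had WT peaks of much the same height and length. The highest WT values were at Zfp157 (8.59), Zfp7 (8.10), Zfp607b (7.95), Zfp933 (7.54) and Zfp799 (7.52). They went on with Zfp146 (7.29), Zfp748 (7.08), Zfp493 (6.95), Zfp617 (6.91) and Zfp629 (6.91). The lowest were at Zfp608 (3.15), Zfp236 (3.18), Zfp51 (3.22), Zfp260 (3.30) and Zfp423 (3.32). Just inside the 1000-base limit lay the peaks of Zfp518a at 927 bases, Zfp41 at 934 and Zfp52 at 994, with fold enrichments of 6.61, 4.93 and 5.35. Just outside lay Zfp704 at 1001 bases, Zfp369 at 1034 and Zfp976 at 1044, with 3.44, 6.82 and 4.61, and these genes are not members.

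The WT mark lay at the start of nearly every member that could be placed. The strand was known from RefSeq promoter windows (250 bases before to 50 after an annotated start, build GRCm38.p6) for 176 members, and the highest WT peak stood at the 5′ end in 171 of them. The window kept per gene was the one whose start lay nearest the 5′ end of the span, at any distance. At Zfp981 that start, chr4:146514920, lay inside the gene and away from the WT peak, so a window need not show the marked end. In the other 5, Zfp174, Zfp53, Zfp512b, Zfp628 and Zfp78, the highest WT peak stood at the 3′ end. Counting any WT peak, 174 of the 176 had one at the 5′ end, so some of these 5 were marked there too. The summit lay inside the gene in 142 of the 171 (83.0%), at a median of 227 bases from the 5′ end with quartiles of 121 and 462 bases. In 5959 other genes marked at the 5′ end, 79.9% of summits were inside and the median distance was 344 bases. The bin from 100 to 200 bases held 20.5% of the members' summits and 9.83% of those of the other genes, as the plot of summit positions shows. This difference in position is part of the WT list that chose the members and was not tested.

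**Figure D1:**
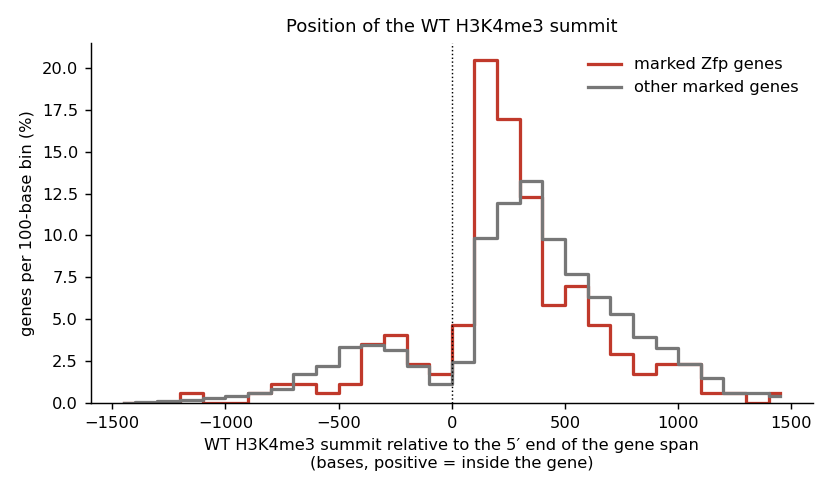
Position of the WT H3K4me3 summit relative to the 5′ end of the gene span (x axis, bases, positive inside the gene) as the percent of genes per 100-base bin (y axis), for 171 marked Zfp genes and 5959 other marked genes. Summits of the Zfp genes gathered closer to the start, with 20.5% of them between 100 and 200 bases inside, against 9.83% for the other genes.

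The promoters of the members were poorer in CpG than those of the other marked genes. The 300-base windows of the 176 members held a median of 16 CpG dinucleotides (quartiles 10 and 21) and 55.7% G and C. The windows of 6156 other marked genes held 23 (quartiles 16 and 30) and 62.0%, and all 17491 promoters held 13. The GC box GGGCGG, a core of the Sp1 motif, stood on either strand in 46.6% of the members' windows, 70.6% of those of the other marked genes and 46.3% of all windows. The CCAAT box, bound by NF-Y, stood in 48.9%, 40.1% and 39.2%, and ATGGC, a core of the YY1 motif, in 46.6%, 39.8% and 39.2%. The TATA box letters TATAAA stood in 5.11%, 5.75% and 13.3%. The letters ACTACA, part of the motif known for human ZNF143, stood in 49 of the 176 windows (27.8%), in 11.4% of those of the other marked genes and in 10.7% of all windows. Unmarked Zfp genes held ACTACA in 21.9% of their windows, so it also stood in Zfp promoters without the WT mark. Both strands were searched, none of the 5 strings contains another, and a match is a run of letters, not a bound site.

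In KO, H3K4me3 was called at 11 of the 209 members, or 5.26% (Wilson 95% interval 2.96% to 9.18%, counting error only), beside 8.98% of all 7759 marked genes. The interval holds the background share, and the 11 members rested on 10 separate KO peaks, since Zfp668 and Zfp646 share 1. No member was called in KO and not in DKO (0 of 209, which allows a share of up to 1.44%, background 0.516%), so all 11 were called in all 3 genotypes (background 8.47%). With 1 library per genotype no difference between genotypes has a replicate check. In such bulk material, fewer cells with the mark and less of it per cell cannot be told apart.

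Zfp207 (BuGZ), a partner of the spindle checkpoint protein Bub3, had fold enrichments of 5.63 in KO, 4.58 in DKO and 5.35 in WT. Zfp106, an RNA-binding protein of muscle and motor neurons, had 5.45, 5.33 and 4.94 in KO, DKO and WT. Zfp143, a transcriptional activator bound at many promoters, had 5.10, 4.20 and 5.46. All 3 were called in each genotype, and Zfp207 and Zfp106 had the highest KO peaks among the members. Zfp706, which in mouse embryonic stem cells restrains Klf4, had 4.38 in KO, 4.09 in DKO and 5.11 in WT. Zfp36l1, a CCCH-type protein that binds AU-rich elements and speeds mRNA decay, had 3.82, 3.36 and 4.78. The peak shared by Zfp668, whose human counterpart acts in the DNA damage response, and Zfp646 had 4.67, 4.77 and 4.31, and in WT it was the longest of all members' peaks at 2105 bases. The remaining members are Zfp661 (5.19, 4.29 and 6.39), Zfp961 (4.0, 4.29 and 5.92), Zfp553 (3.86, 4.07 and 4.53) and Zfp617 (3.74, 5.01 and 6.91), in the same order of genotypes. Their KO peaks had pileups of 20 to 28 fragments, beside 28 to 51 in DKO and 39 to 55 in WT.

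**Figure D2:**
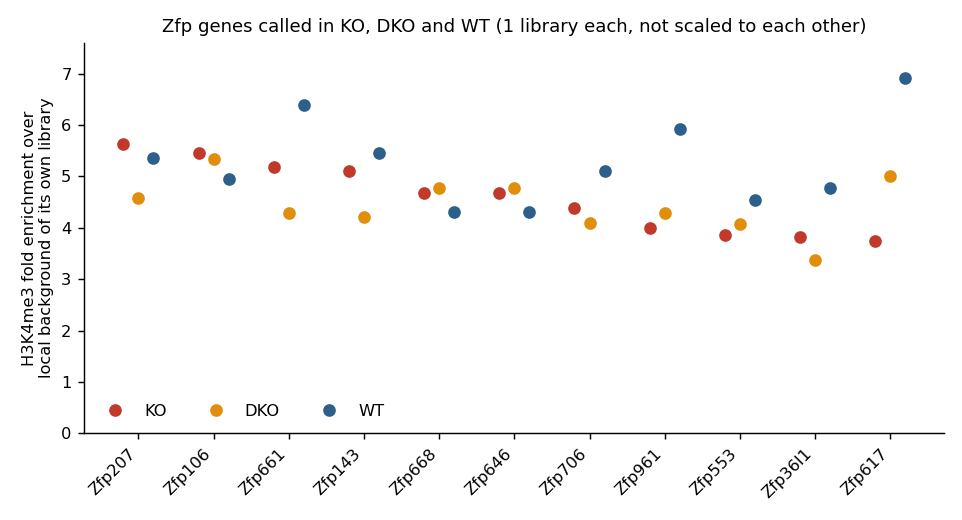
H3K4me3 fold enrichment over the local background of each library (y axis) at the 11 Zfp genes called in KO (x axis, ordered by KO value), with 1 point each for KO, DKO and WT. The KO points run from 3.74 at Zfp617 to 5.63 at Zfp207, and heights are not scaled between the 3 libraries.

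The promoters of the 3 members with the highest KO peaks are given to show the letters near ends called in all 3 genotypes. In these RefSeq windows (build GRCm38.p6, gene strand, 5′ to 3′), capitals mark the matches to the 5 strings on either strand. Zfp207 lies on the plus strand at chr11:80383029-80383328, Zfp106 on the minus strand at chr2:120563810-120564109 and Zfp661 on the minus strand at chr2:127587045-127587344.
Zfp207: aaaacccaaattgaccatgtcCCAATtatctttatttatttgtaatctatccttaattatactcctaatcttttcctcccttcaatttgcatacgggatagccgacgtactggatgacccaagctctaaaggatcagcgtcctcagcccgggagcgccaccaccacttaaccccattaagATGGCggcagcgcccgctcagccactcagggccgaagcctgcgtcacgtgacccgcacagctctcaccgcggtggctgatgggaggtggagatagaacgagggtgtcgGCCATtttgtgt
Zfp106: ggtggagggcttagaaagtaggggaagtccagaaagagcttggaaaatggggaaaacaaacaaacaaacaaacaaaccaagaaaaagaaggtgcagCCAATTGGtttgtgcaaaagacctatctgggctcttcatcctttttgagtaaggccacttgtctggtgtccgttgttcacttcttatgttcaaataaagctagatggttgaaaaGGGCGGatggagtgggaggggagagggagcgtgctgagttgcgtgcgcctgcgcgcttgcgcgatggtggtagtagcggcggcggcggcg
Zfp661: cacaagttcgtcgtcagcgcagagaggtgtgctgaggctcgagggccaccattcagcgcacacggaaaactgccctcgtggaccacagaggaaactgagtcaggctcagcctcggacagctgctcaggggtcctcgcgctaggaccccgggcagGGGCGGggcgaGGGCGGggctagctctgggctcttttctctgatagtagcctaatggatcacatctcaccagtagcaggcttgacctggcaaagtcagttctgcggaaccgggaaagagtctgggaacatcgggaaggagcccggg
None of the 3 windows overlapped the highest KO or DKO peak of its gene, and that of Zfp106 also missed its highest WT peak. The windows held 17, 14 and 18 CpG dinucleotides. Zfp207 had 1 CCAAT match and 2 ATGGC matches, Zfp106 had 2 CCAAT matches that overlap on opposite strands and 1 GC box, and Zfp661 had 2 GC boxes only. None of the 9 called members with a window held ACTACA.

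In DKO, H3K4me3 was called at 120 of the 209 members, or 57.4% (interval 50.6% to 63.9%), beside 59.7% of all marked genes. A total of 109 members (52.2%, background 51.3%) were called in DKO and not in KO, and 89 (42.6%, background 39.7%) in neither. These shares lay near the background, so the calls did not set the members apart from other marked genes. With the DKO list cut to its highest 918 peaks, the length of the KO list, 11.5% of the members were called in DKO, beside 11.1% of marked genes. The WT list that chose the members was not cut. The DKO peak overlapped the WT peak in 108 of the 120, and the KO peak did in 11 of 11. In the other 12, among them Zfp52, Zfp53, Zfp78, Zfp260, Zfp687 and Zfp946, the highest DKO and WT peaks were apart. The DKO fold enrichment at the 120 members had a median of 4.11 and ran from 2.92 at Zfp609 to 6.56 at Zfp607b. After Zfp607b came Zfp949 (6.01), Zfp566 (5.87), Zfp598 (5.80), Zfp748 (5.46) and Zfp335 (5.38). They were followed by Zfp953 (5.36), Zfp951 (5.36), Zfp106 (5.33) and Zfp266 (5.31). The WT values of these 10 ran from 3.90 at Zfp951 to 7.95 at Zfp607b, so a high DKO peak also stood where the WT peak was low.

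Members called in DKO had higher and longer WT peaks than those called in neither, as in other marked genes. Members called in KO as well had longer WT peaks, but a median height close to that of members called in DKO only. The median WT fold enrichment was 5.11 in the 11 members called in KO and DKO, 5.06 in the 109 called in DKO only and 4.39 in the 89 called in neither. In the other marked genes it was 5.62, 4.97 and 4.26. The median WT peak length was 1054, 659 and 462 bases in the members, beside 925.5, 662 and 447 bases in the other marked genes. The ranges overlapped widely: members called in neither reached 7.54 (Zfp933), and members called in DKO only went down to 3.30 (Zfp260), as the plot by class shows.

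**Figure D3:**
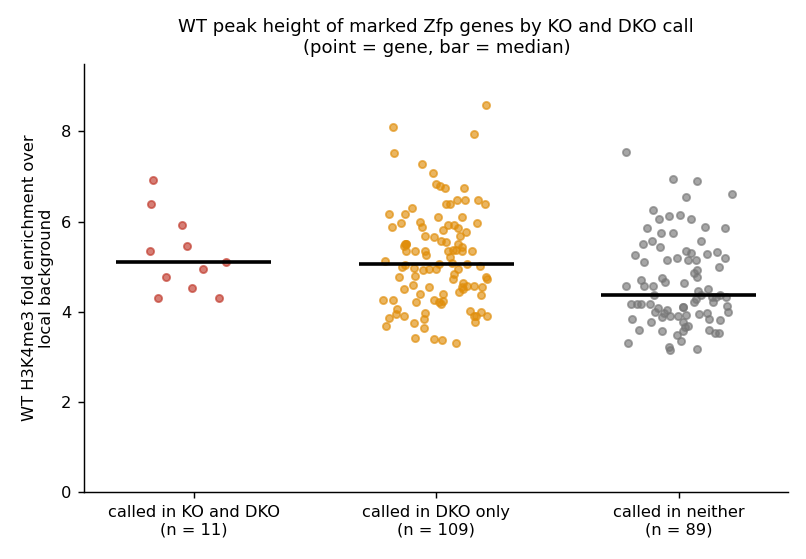
WT H3K4me3 fold enrichment (y axis) of the 209 marked Zfp genes, grouped by whether a peak was also called in KO and DKO, in DKO only or in neither (x axis). Points are genes and bars are medians (5.11, 5.06 and 4.39), and the 3 groups overlap over most of their range.

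Since DKO calls went with WT height, and KO calls did so over all marked genes, members were also set beside marked genes of like WT height. Marked genes were split into tertiles at WT fold enrichments of 4.29 and 5.21. In the highest tertile, 5 of 81 members were called in KO (6.17%, interval 2.67% to 13.6%, background 16.3%) and 57 of 81 in DKO (70.4%, interval 59.7% to 79.2%, background 79.9%). In the middle tertile the KO count was 6 of 62 (9.68%, background 8.47%) and the DKO count 37 of 62 (59.7%, background 60.8%). In the lowest tertile it was 0 of 66 in KO, which allows up to 4.55% (background 2.16%), and 26 of 66 in DKO (39.4%, background 38.6%). In the highest tertile alone both intervals lay below the background shares. The tertiles use the values that chose the members, and this difference was not tested.

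A WT peak within 1000 bases of an end of more than 1 gene cannot be given to 1 of them. This was so for 39 members (18.7%), beside 31.0% of the other marked genes. Among these 39, 6 were called in KO (15.4%, background 11.4%) and 29 in DKO (74.4%, background 71.9%). Among the 170 members whose WT peak lay at no other gene, 5 were called in KO (2.94%, interval 1.26% to 6.70%, background 7.9%) and 91 in DKO (53.5%, background 54.4%). Those 5 are Zfp207, Zfp106, Zfp143, Zfp961 and Zfp617. Of the other 6, Zfp661 shared its peak with Mrps5, a mitochondrial ribosomal protein gene, Zfp553 with Septin1, Zfp668 with Zfp646, and Zfp36l1 and Zfp706 with 1 predicted gene each. In all, 14 members shared the WT peak with another Zfp gene, in the pairs Zfp53 and Zfp52, Zfp942 and Zfp943, Zfp944 and Zfp758, Zfp786 and Zfp398, Zfp784 and Zfp580, Zfp78 and Zfp28, and Zfp668 and Zfp646. The 209 members thus rested on 202 separate WT peaks.

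Zfp genes were also grouped by known role, marked or not. Of 9 genes known for silencing retroelements or keeping imprints, 0 were called in KO, 2 in DKO and 3 were marked in WT. For comparison, 52.6% of all Zfp genes were marked in WT, and 8.98% and 59.7% of all marked genes were called in KO and DKO. The list is too short to be set apart from these shares. Zfp809, which recognises a retroviral primer binding site, had 5.13 in DKO and 4.17 in WT. Zfp568, which represses a placental Igf2 transcript, had 3.41 in DKO and 5.50 in WT, and Zfp932, which silences endogenous retroviruses, had a peak of 3.77 in WT only. The imprint keepers Zfp57 and Zfp445 had no WT peak and are not members, nor are Zfp708, Zfp92, Zfp455 and Zfp458.

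Of 13 RNA-binding or non-C2H2 proteins, 3 were called in KO, 8 in DKO and 10 were marked in WT. The 3 in KO are Zfp207, Zfp106 and Zfp36l1, whose values stand above. Called in DKO and WT were Zfp598, the ubiquitin ligase of collided ribosomes (5.80 in DKO and 6.76 in WT), and Zfp346, which binds double-stranded RNA (4.84 and 3.91). Zfp622, a factor of the large ribosomal subunit, had 3.83 and 4.94, Zfp638, known in human cells for silencing unintegrated retroviral DNA, had 3.89 and 5.05, and Zfp830 had 4.78 and 4.59. The mRNA decay factor Zfp36l2 (3.59) and the splicing-linked Zfp326 (3.91) were called in WT only, and Zfp36, Zfp36l3 and Zfp385a were not marked. In this list 8 of 10 marked genes (80%) were called in DKO, beside 57.4% of all members and 59.7% of all marked genes, over few genes. The background was 8.98% of marked genes for KO calls, and 52.6% of all Zfp genes were marked in WT.

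Of 23 genes with roles in stem cells, chromatin or development, 2 were called in KO (Zfp143 and Zfp706), 12 in DKO and 17 were marked in WT. The 12 are 70.6% of the 17 marked, beside 59.7% of all marked genes, over few genes. The background was 8.98% of marked genes for KO calls, and 52.6% of all Zfp genes were marked in WT. Zfp42 (Rex1), a marker of naive pluripotent cells, had no KO peak and had 3.69 in DKO and 5.06 in WT. Zfp296, a partner of Klf4, had 3.46 and 3.42, and Zfp322a, which helps maintain embryonic stem cells, had 3.60 and 4.26. Zfp335, linked to neural progenitors and human microcephaly, had 5.38 and 5.82, and the cortical migration gene Zfp609 had 2.92 and 4.40. The DKO set was completed by Zfp148 (3.79 and 4.79), Zfp219 (4.12 and 3.68), Zfp292 (4.12 and 4.51), Zfp592 (4.02 and 4.26) and Zfp687 (4.98 and 4.99). Called in WT only were Zfp281 (4.13), a regulator of pluripotency, Zfp423 (3.32), a cerebellar and fat cell factor, Zfp462 (3.69), Zfp516 (3.82) and Zfp644 (4.32). Zfp217, Zfp503, Zfp521, Zfp532, Zfp536 and Zfp703 had no WT peak.

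Chromosome clusters were built from gene positions only, by chaining Zfp genes whose spans lay at most 250 kb apart and keeping chains of 3 or more. This gave 29 clusters with 202 Zfp genes, 10 of them on chromosome 7. Chromosomes 7, 13 and 17 together held 102 of the 209 members (48.8%), beside 16.8% of all marked genes. Zfp genes as a whole, marked or not, also gathered there, with 93, 37 and 46 of the 397 on these chromosomes, so this is no trait of the marked ones alone. WT marking was alike in and out of clusters: 107 of 202 clustered genes (53%, interval 46.1% to 59.7%) and 102 of 195 genes outside (52.3%, interval 45.3% to 59.2%). Among the members, 5 of 107 in clusters were called in KO (4.67%) and 6 of 102 outside (5.88%). In DKO 59 in clusters (55.1%, interval 45.7% to 64.2%) and 61 outside (59.8%, interval 50.1% to 68.8%) were called, and the intervals overlap. Clustered members had a median WT fold enrichment of 5.04 and 13 CpG dinucleotides per window, against 4.67 and 18 outside. ACTACA stood in 37.0% of windows in clusters and 17.9% outside.

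The clusters varied in their counts, over few genes each and with no test, as the bar plot by cluster shows. The largest, chr13:67038594-67827000 from Zfp712 to Zfp273, had 23 Zfp genes, of which 0 were called in KO, 3 in DKO and 10 were marked in WT. Its members had a median WT fold enrichment of 6.06, and 7 of the 10 fell in the highest WT tertile, of which 3 were called in DKO. Those 3 are Zfp712 (3.82 in DKO and 6.49 in WT), Zfp953 (5.36 and 6.75) and Zfp748 (5.46 and 7.08). The WT-only members of this cluster were Zfp493 (6.95), Zfp87 (6.07), Zfp58 (6.05), Zfp457 (5.35), Zfp729a (5.16), Zfp273 (5.16) and Zfp738 (4.17). High WT peaks without a DKO call were thus several within this cluster, from 1 library per genotype and with no test. Of all marked genes in the highest tertile, 79.9% were called in DKO. Among members in that tertile, 34 of 48 in all clusters together (70.8%) and 23 of 33 outside clusters (69.7%) were called.

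In the cluster at chr17:21383707-22456689, from Zfp677 to Zfp946, 0 of 18 genes were called in KO, 7 in DKO and 10 in WT. Zfp54 (4.55) and Zfp229 (4.55) were called in DKO and are not members. The 5 members called in DKO were Zfp53 and Zfp52 (4.55 in DKO and 5.35 in WT, 1 shared peak in each), Zfp944 and Zfp758 (3.59 and 5.36, 1 shared peak in each) and Zfp946 (4.11 and 4.02). Called in WT only were Zfp942 and Zfp943 (5.87, 1 shared peak), Zfp995 (5.76), Zfp760 (4.28) and Zfp51 (3.22). The cluster at chr7:29768552-30169775, from Zfp84 to Zfp146, was the most densely marked of the 4 largest, with 0 called in KO, 5 in DKO and 13 of 15 marked in WT. Its DKO calls were Zfp566 (5.87 and 6.16), Zfp84 (5.25 and 5.57), Zfp146 (4.45 and 7.29), Zfp260 (3.82 and 3.30) and Zfp568 (3.41 and 5.50). Its 8 WT-only members were Zfp82 (6.54), Zfp420 (5.15), Zfp382 (4.76), Zfp14 (4.64), Zfp74 (4.47), Zfp30 (3.95), Zfp940 (3.66) and Zfp383 (3.53). In the cluster at chr17:32765496-33631716, from Zfp871 to Zfp414, 0 of 13 genes were called in KO, 6 in DKO and 8 in WT. There all 4 members of the highest tertile were called in DKO (background 79.9%): Zfp799 (5.00 in DKO and 7.52 in WT), Zfp871 (5.02 and 5.97), Zfp472 (4.0 and 5.69) and Zfp763 (5.28 and 5.65). Zfp81 (3.68 and 4.76) and Zfp870 (4.06 and 4.57) were called in DKO with lower WT peaks, and Zfp101 (4.76) and Zfp414 (4.17) in WT only.

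**Figure D4:**
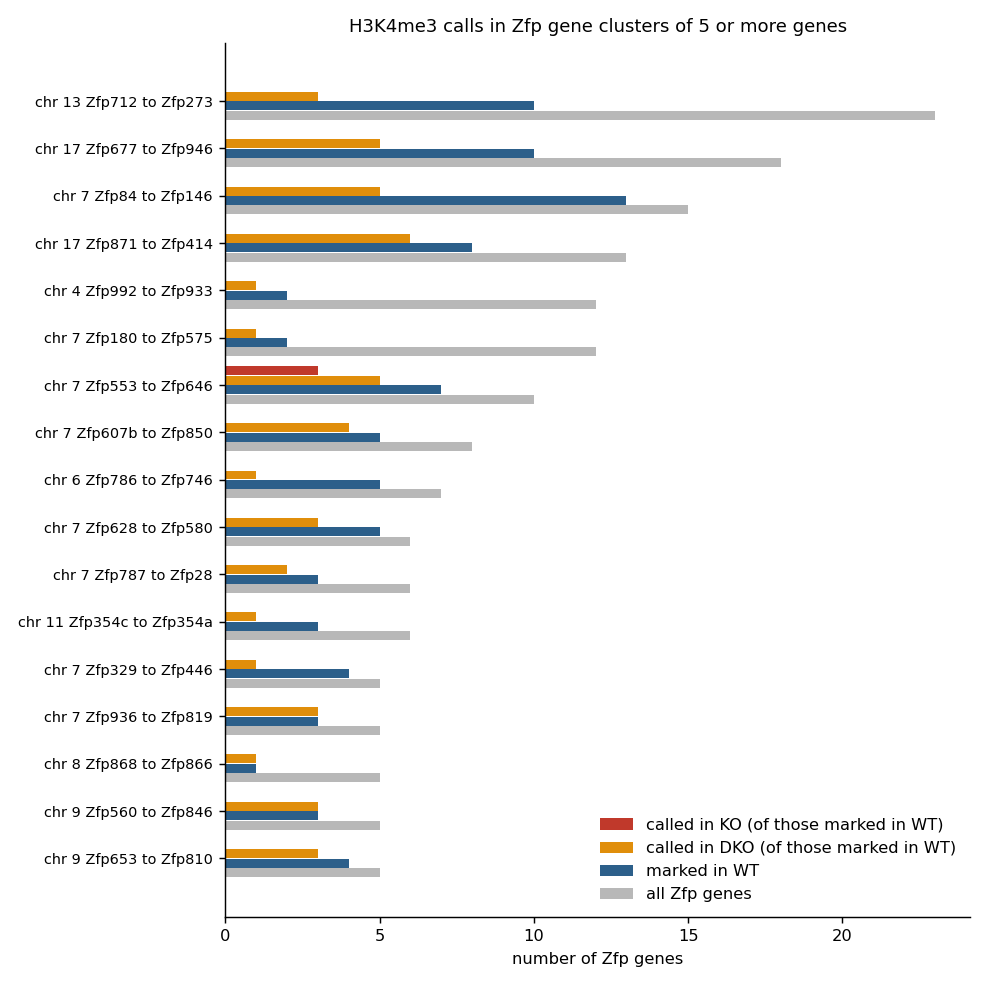
Number of WT-marked Zfp genes called in KO, of WT-marked Zfp genes called in DKO, of Zfp genes marked in WT and of all Zfp genes (x axis) in each of the 17 clusters of 5 or more genes (y axis, named by their first and last gene). KO calls appear in 1 of these clusters only, Zfp553 to Zfp646 on chromosome 7, while the chromosome 13 cluster has 3 DKO calls among 10 marked genes. Over all marked genes, 8.98% were called in KO and 59.7% in DKO.

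KO calls in clusters came from 2 of the 29. The cluster chr7:127233061-127885996, from Zfp553 to Zfp646, had 3 of 10 genes called in KO, 6 in DKO and 7 in WT, and 5 of the 6 are members, the other being Zfp771 (4.03 in DKO). The cluster chr8:71882068-71970333, from Zfp709 to Zfp961, had 4 genes, of which Zfp617 and Zfp961 were called in KO, DKO and WT. At the other end, the cluster of 3 genes with Zfp445 had none marked, and the cluster of 12 genes from Zfp992 to Zfp933 on chromosome 4 had 0, 4 and 2 called in KO, DKO and WT. Of those 4, Zfp981 alone is a member. Of the 188 Zfp genes without a WT peak in the window, 14 were called in DKO. Among them were Zfp988, Zfp985 and Zfp534 of that chromosome 4 cluster, with DKO values of 4.03, 3.58 and 3.33. Zfp704 is also among the 14, with a WT peak at 1001 bases, just past the limit. The share over other genes unmarked in WT was not computed, so the count is no trait of Zfp genes. No Zfp gene was called in KO and not in WT, again with no share computed over other genes. Clustered Zfp genes are often close copies of one another, and how reads that fit several copies were handled is not given in the sources used here, so calls in clusters are uncertain.

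WDR5 regions, called in both WT lists within 1000 bases of an end, stood at 4 of the 209 members, or 1.91% (interval 0.747% to 4.82%, background 3.71%). None of the 4 overlapped a WDR5 peak of either DKO list (1.91%, background 2.69% for a WT region absent from DKO). The 4 are Zfp607b, Zfp788, Zfp146 and Zfp78, all on chromosome 7 and all called for H3K4me3 in DKO and WT and not in KO. The interval holds the background share. With every WDR5 list cut to its highest 166 peaks the share stayed at 1.91% while the background was 1.19% (0.748% for regions absent from DKO), so its order against the background turned. Their RefSeq windows follow (build GRCm38.p6, gene strand, 5′ to 3′) with the bases inside the WT WDR5 region in capitals, to show where the region meets the promoter. The windows are chr7:27674411-27674710 for Zfp607b, chr7:41633281-41633580 for Zfp788 and chr7:6363058-6363357 for Zfp78, all on the plus strand, and chr7:30169692-30169991 on the minus strand for Zfp146.
Zfp607b: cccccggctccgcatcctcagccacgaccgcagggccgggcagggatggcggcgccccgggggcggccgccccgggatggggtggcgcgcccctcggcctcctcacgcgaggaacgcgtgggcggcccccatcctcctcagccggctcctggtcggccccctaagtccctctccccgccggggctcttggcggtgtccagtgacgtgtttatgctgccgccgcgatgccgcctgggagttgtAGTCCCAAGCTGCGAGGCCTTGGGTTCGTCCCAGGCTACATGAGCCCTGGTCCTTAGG
Zfp788: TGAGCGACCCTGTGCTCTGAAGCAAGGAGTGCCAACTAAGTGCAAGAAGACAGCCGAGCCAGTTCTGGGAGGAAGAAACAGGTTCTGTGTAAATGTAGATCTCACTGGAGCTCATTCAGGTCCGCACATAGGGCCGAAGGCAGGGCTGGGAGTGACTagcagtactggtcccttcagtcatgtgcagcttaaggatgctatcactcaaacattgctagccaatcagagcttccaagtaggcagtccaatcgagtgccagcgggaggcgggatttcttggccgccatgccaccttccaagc
Zfp146: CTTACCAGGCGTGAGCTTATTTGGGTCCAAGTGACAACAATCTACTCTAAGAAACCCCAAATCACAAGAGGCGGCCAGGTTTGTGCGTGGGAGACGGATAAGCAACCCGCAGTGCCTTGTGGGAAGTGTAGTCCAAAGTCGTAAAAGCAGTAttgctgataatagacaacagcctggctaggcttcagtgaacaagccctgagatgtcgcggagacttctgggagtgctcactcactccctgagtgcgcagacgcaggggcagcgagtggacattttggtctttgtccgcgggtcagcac
Zfp78: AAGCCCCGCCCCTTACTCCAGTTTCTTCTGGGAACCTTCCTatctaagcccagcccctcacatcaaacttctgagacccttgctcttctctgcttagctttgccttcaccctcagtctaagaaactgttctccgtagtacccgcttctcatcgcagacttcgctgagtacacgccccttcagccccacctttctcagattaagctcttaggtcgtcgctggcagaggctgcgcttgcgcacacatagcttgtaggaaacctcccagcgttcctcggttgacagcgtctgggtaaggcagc
The regions covered 58 of the 300 bases at Zfp607b, 157 at Zfp788, 152 at Zfp146 and 41 at Zfp78. ACTACA stood on the other strand at Zfp146, with all 6 bases in the region, and at Zfp607b, with 3 of 6 bases in it, and at neither of the other 2.

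The region at Zfp607b, chr7:27674653-27674968, was the highest of the 4, with no WDR5 peak in either DKO list and fold enrichments of 9.08 and 8.23 in WT lists 1 and 2. It ranked 33 of the 438 WT WDR5 regions, and its H3K4me3 peak, shared with the kinase gene Map3k10, had 6.56 in DKO and 7.95 in WT. Zfp607b thus had the highest DKO H3K4me3 peak of all members together with the highest WDR5 region among them. The region at Zfp788, chr7:41633119-41633437, had no DKO peak and 6.73 and 6.30 in the WT lists, beside H3K4me3 of 4.48 in DKO and 6.39 in WT. At Zfp146, chr7:30169840-30170128, the WT values were 6.21 and 5.84, beside H3K4me3 of 4.45 in DKO and 7.29 in WT. At Zfp78, chr7:6362517-6363098, they were 6.07 and 6.05. The WDR5 regions at Zfp607b, Zfp788 and Zfp146 overlapped the WT H3K4me3 peak, while that of Zfp78 lay at the 5′ end and its H3K4me3 peak, chr7:6382567-6383150, at the 3′ end beside Zfp28. The highest DKO H3K4me3 peak of Zfp78, chr7:6363385-6363799, lay at the 5′ end next to the WDR5 region. Its highest DKO and WT peaks thus lay at different ends, and a lower WT peak at the 5′ end is not excluded.

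WT list 1 alone put WDR5 at 9 members (4.31%, background 6.07%), adding Zfp511 (5.30), Zfp444 (4.67), Zfp524 (4.43), Zfp512b (4.18) and Zfp64 (4.08). In DKO, either list put WDR5 at 1 member (0.478%, background 1.71%), Zfp524, with 4.61 in list 1 and no peak in list 2. Zfp524 thus had a peak in list 1 of both genotypes and in list 2 of neither.

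P53 regions, called in both WT lists within 5000 bases of an end, stood at 3 members, or 1.44% (interval 0.489% to 4.13%, background 0.309%). Within 1000 bases Zfp958 alone was left (0.478%, background 0.103%). The count is small, and 1 of the 3 overlapped no DKO P53 peak (0.478%, background 0.193%). A DKO P53 peak of either list stood at 2 members (0.957%, background 0.219%). The 3 members, Zfp981, Zfp809 and Zfp958, were called for H3K4me3 in DKO and WT and not in KO. Zfp809 had no P53 peak in DKO and 13.8 and 13.2 in WT lists 1 and 2, at chr9:22226945-22227498, inside the gene and 1278 bases from its nearest end. That region overlapped the WT H3K4me3 peak. Zfp958 had 6.68 and 5.22 in DKO lists 1 and 2 and 13.5 and 12.8 in the WT lists, at chr8:4611826-4612989. Zfp981 had 3.46 in DKO list 2 and no peak in DKO list 1, beside 19.3 and 17.6 in the WT lists, at chr4:146497467-146498347 and 3653 bases outside the gene. The sites at Zfp958 and Zfp981 were thus called in cells labelled as lacking p53, and WT WDR5 peaks of 3.48 and 3.60 stood at the Zfp981 site too.

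The P53 region of Zfp958 reached into its promoter, shown here on the plus strand at chr8:4612920-4613219 (build GRCm38.p6) with the 70 bases inside the region in capitals.
Zfp958: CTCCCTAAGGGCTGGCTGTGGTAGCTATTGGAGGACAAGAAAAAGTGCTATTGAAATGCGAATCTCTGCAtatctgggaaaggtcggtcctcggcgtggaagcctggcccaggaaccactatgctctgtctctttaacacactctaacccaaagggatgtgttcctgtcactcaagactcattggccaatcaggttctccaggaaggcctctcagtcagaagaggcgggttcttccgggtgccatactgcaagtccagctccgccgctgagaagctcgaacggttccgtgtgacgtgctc
The regions ranked 6 (Zfp981), 18 (Zfp809) and 20 (Zfp958) among the 288 WT P53 regions. Among unmarked Zfp genes, P53 regions stood at Zfp558, with no DKO peak, and at Zfp982, which lies in the same chromosome 4 cluster as Zfp981. The Zfp982 site had P53 values of 4.47 in DKO list 2 and 3.41 and 3.64 in the WT lists, and WDR5 peaks of 3.85 and 3.57 in the DKO lists and 3.50 in WT list 1. WDR5 regions stood at Zfp438, with no DKO peak, and at Zfp868, called in both DKO lists. Beyond 1000 and within 5000 bases, single-list WT WDR5 peaks stood near the members Zfp106 (4.94), Zfp13 (4.69), Zfp324 (5.17) and Zfp786 (4.68), with no DKO peak.

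**Figure D5:**
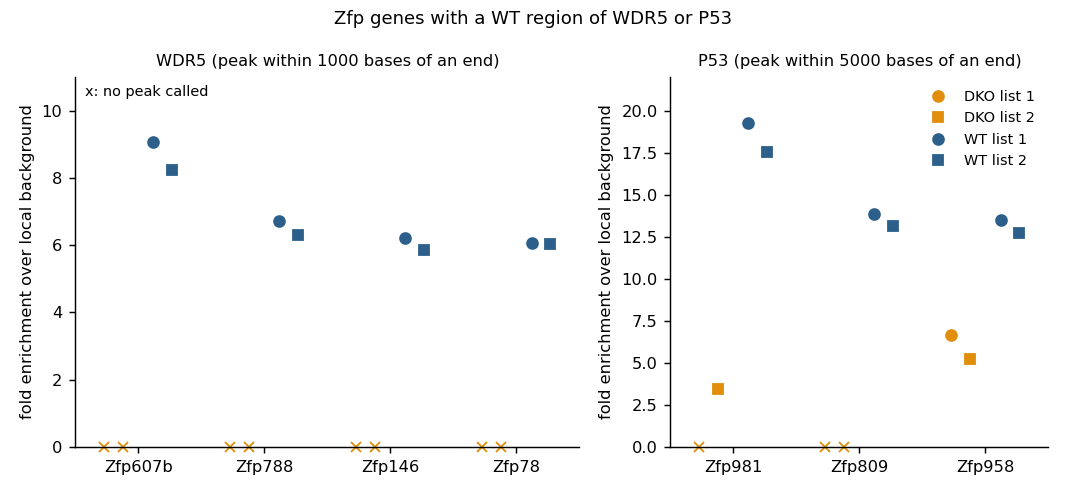
Fold enrichment (y axis) of WDR5 peaks (left) and P53 peaks (right) at the marked Zfp genes with a WT region (x axis), for DKO lists 1 and 2 and WT lists 1 and 2, with a cross where no peak was called. WDR5 was called at the 4 genes in WT lists only, while P53 at Zfp958 had 6.68 and 5.22 in DKO against 13.5 and 12.8 in WT.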

How the data were processed

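The data are CUT&RUN peak lists from mouse embryoid bodies. Per the file headers, the authors called peaks with MACS 2.1.2 or 2.1.0.20150731 from paired-end reads and no control library, with a q cutoff of 0.01, a local background of 10000 bases and at most 2 duplicates per position. The submitters' processing notes name Bowtie2, SAMtools 1.5, bedtools, MACS2 2.1.0, HOMER 4.10 and mm10. The deposited values are the pileup, a coverage signal at the summit, the fold enrichment, a ratio of that to the local background, and the −log10 of the p-value and of the q-value. 35 mitochondrial peaks were left out.

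A gene was called where a peak came within 1000 bases of an end of its span (5000 for P53). WDR5 and P53 regions are peaks called in both lists of a genotype, sharing at least 1 base. The Wilson 95% interval of a share covers counting error only, and no test was made. Depth ran from 22.3 M (mega) fragments in KO H3K4me3 to 57.5 M in 1 DKO P53 list. Python 3.11.15, pandas 2.3.3, NumPy 2.4.6 and SciPy 1.17.1 were used, and the counting was tested on simulated data. Alternatives varied the window, list length, overlap, lists and clusters.

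The members and lists were chosen with earlier results of these data known. The named genes are all members with WDR5 or P53 peaks or a KO peak, the highest and lowest WT and highest DKO peaks, those next to the distance limit, members of the 4 largest clusters and of the role lists. Other genes were named after their values were seen. Protein features were planned and not run, as no protein table was used here.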

Additional observations from a re-analysis of the deposited data

How the results depend on the processing

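Of 47 alternatives over 7 results, 30 kept the value both within 1.5 times and inside its Wilson interval, and 17 moved it. With only the 50% of KO or DKO peaks highest in fold enrichment, 1.91% of the members were called in KO (background 4.1%) and 35.9% in DKO (36.6%). The WT H3K4me3 list that chose the members was not cut. The same cut of every WDR5 and P53 list gave 0.957% for P53 absent from DKO (0.168%). WDR5 stayed at 1.91%, beside a background of 1.91% there and of 1.19% with lists of equal length, where it was 3.71% in the full lists. Members whose WT peak lay at no other gene gave 2.94% in KO (background 7.9%). DKO calls moved to 50.2% with a window of 500 bases (background 48.1%) and to 67.4% over members with a peak in the top 50% of the WT list (background 71.9%). With the DKO list cut to 918 peaks and the WT list left whole they moved to 11.5% (background 11.1%), so the DKO share depends on list length. Lists of equal length gave 0.957% for P53 absent from DKO (background 0.0902%). P53 within 500 or 1000 bases stood at 0.478% of the members, which is 1 gene (background 0.0387% and 0.103%). Absent from DKO it stood at 0% (background 0.0129% and 0.0644%). Leaving out 1 list at a time, WDR5 ranged from 1.91% to 4.31% (4.31% without WT list 2) and WDR5 absent from DKO from 1.91% to 3.83%. P53 was 1.44% throughout and P53 absent from DKO ranged from 0.478% to 0.957% (0.957% without DKO list 2). Clusters held 51.2% of the members, 58.4% with gaps of 500 kb and 42.1% with at least 5 genes. The cause of these moves was not tested, beyond what each setting does by construction.

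No paired analysis was possible because the results come from no test and H3K4me3 has 1 library per genotype. The KO library was the shallowest, and the part of depth in its calls was not tested. A gene without a call is not shown to lack the mark. A peak near several genes counts for each.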
